A study of Mus musculus with 23 samples.

Results

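High-intensity intermittent training (HIIT) was set against moderate-intensity continuous training (MICT) in the gastrocnemius muscle of adult male C57BL/6J mice. The members are the 7 arrays whose titles and treatment labels give adult HIIT (4 arrays) or adult MICT (3 arrays), of 23 arrays in the series. Each array measured RNA of one muscle with Cy3 label in 1 colour. The series lists 4 mice for each group; replicate 2 of adult MICT was not analysed here.

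The adult mice were 5 months old when training began and carry an age of 6 months in the labels. The HIIT mice ran 3 bouts of 2 min at 27 m/min each day, with 1 min of recovery at 5 m/min between bouts. The MICT mice ran once a day for 45 min at 13 m/min. Both groups trained daily for 4 weeks on a treadmill and rested 12 h before the muscle was taken. The 4 adult sedentary controls were brought to a treadmill that was switched off. All animals carried the same inbred background and no engineered allele is named. The same pair of regimens was also run in old mice, aged 24 months at the start, and those 8 arrays serve here only for the comparison between ages.

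Skeletal muscle holds slow-twitch fibres, which work oxidatively and resist fatigue, and fast-twitch fibres, which shorten quickly and draw more on glycogen. Each fibre type carries its own isoforms of myosin, troponin and the calcium pump of the sarcoplasmic reticulum, so the transcripts of these isoforms follow the fibre makeup of the piece of muscle sampled. In the mouse, gastrocnemius is mostly fast, with a smaller oxidative region. Repeated running is known to raise mitochondrial enzymes and to act through regulators such as PGC-1 alpha, the product of Ppargc1a, and the estrogen-related receptors.

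The markers of the labelled tissue were bright. All 10 skeletal muscle markers were tested, and Acta1, skeletal actin, lay at log2 signals of 9.34 to 10.05 on the HIIT arrays and 9.67 to 10.10 on the MICT arrays, on a scale whose 0 is each array's 75th percentile. Alb, the serum albumin of liver, lay at -3.75 to -1.43 on the HIIT arrays and -3.65 to -1.97 on the MICT arrays. Between 51.2% and 53.9% of gene spots were well above background on the HIIT arrays, against 50.1% to 53.6% on the MICT arrays. The adult HIIT and control arrays were hybridised on slide 1 and the adult MICT arrays on slide 2, so slide and regimen cannot be told apart in this comparison. The number of arrays limits the precision of every value.

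The array of adult HIIT replicate 3 stood apart. Its correlation with the other adult arrays across features ran from 0.952 to 0.967, with a median of 0.959. The medians of the other adult arrays lay between 0.982 and 0.986. On that array 252 gene spots lay over 1.5 log2 units below every other array of the series, and 250 of them sat in spot columns 68 to 85 of 164. The count of such spots was 1 to 3 on the other HIIT arrays and 4 to 5 on the MICT arrays, and 43 on adult control replicate 3. Of the 6516 gene spots in those columns, 11.6% had their lowest value of all 23 arrays on HIIT replicate 3, against 2.56% of the other gene spots. With the probes of those columns left out, its median correlation was 0.969, still below the 0.982 to 0.987 of the other adult arrays. B2m, Pecam1, Hpf1 and Ociad1 have their probes in these columns, and their negative differences lay on that array. B2m, the light chain of class I antigen-presenting molecules, read 5.39, 5.21, 0.37 and 5.29 on HIIT replicates 1 to 4. On MICT replicates 1, 3 and 4 it read 5.25, 5.41 and 5.04. With HIIT replicate 3 left out for probes in these columns, the B2m difference of -1.17 (HIIT minus MICT, log2) became 0.06.

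**Figure D1:**
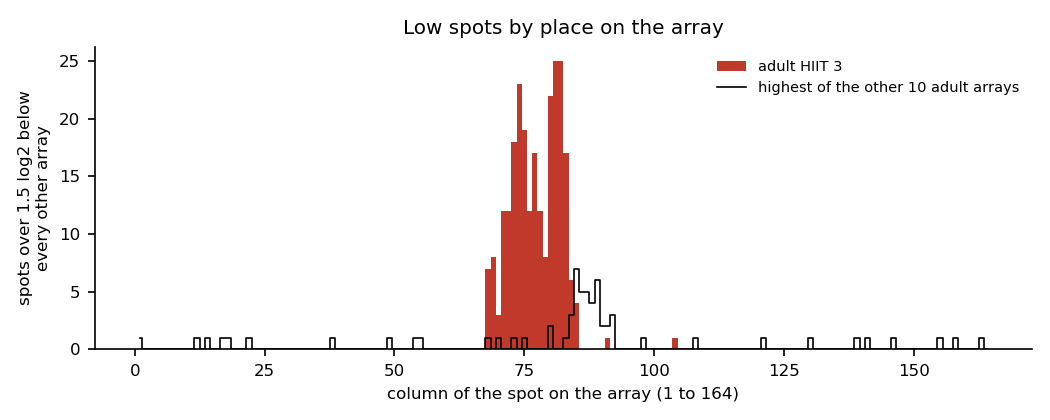
Number of gene spots lying over 1.5 log2 units below every other array of the series (vertical axis), by the column of the spot on the array (horizontal axis). Bars show adult HIIT replicate 3, and the line shows the highest count among the other adult arrays; 250 of the 252 low spots of HIIT replicate 3 lie in columns 68 to 85.

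The same array also carried skin transcripts. A list score, the median over a list's genes of the log2 signal minus the adult control mean, was -0.03, -0.05, 6.70 and 2.65 on HIIT replicates 1 to 4 for 10 keratinocyte markers, against 0.53, -0.25 and -0.35 on MICT replicates 1, 3 and 4. Krt5, a basal keratin, read -2.58, -2.96, 4.99 and 1.14 on the HIIT arrays and -1.45, -2.91 and -4.05 on the MICT arrays. HIIT replicate 3 was the highest of the 7 arrays for Krt5 and HIIT replicate 4 the next. The Krt5 probe read here gave a difference of 2.95, and a second probe of the gene gave 1.02. All 10 markers had a difference above 0, and their median of 2.57 became 0.86 without HIIT replicate 3 and -0.12 with HIIT replicates 3 and 4 both left out. The adipocyte score was -0.07, 0.75, 2.89 and 0.80 on the HIIT arrays and 2.14, 1.76 and -0.13 on the MICT arrays, so high arrays occurred in both groups. The part of skin or fat in the results below was not tested beyond leaving these arrays out.

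No feature passed the test between the regimens. Of 27248 features, 15461 of them named genes, 0 had an adjusted p under 0.05 (0% higher and 0% lower in HIIT) in limma with Benjamini-Hochberg adjustment, and the smallest adjusted p was 0.221. At an unadjusted p under 0.05 there were 999 features higher (3.67%) and 1268 lower (4.65%) in HIIT muscle. Among the 15461 named genes the balance was the other way, with 534 higher and 361 lower. The 2 groups did not overlap for 1083 features that were higher (3.97%) and 1808 that were lower (6.64%). The median difference over all features was 0.01. Array weights, estimated in limma from how closely each array follows its own group mean, gave 3431 features called, 1868 higher and 1563 lower. These weights come from the same data that are tested, so the count is not separate support for a difference. The estimated weights were 0.893, 3.20, 0.595 and 1.55 on the HIIT arrays and 0.464, 2.97 and 1.73 on the MICT arrays. MICT replicate 1, with the lowest of these weights, had a median correlation of 0.983 with the other adult arrays. Every difference below is a value with its standard error (SE) from the equal-weight fit, where no feature passed.

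**Figure D2:**
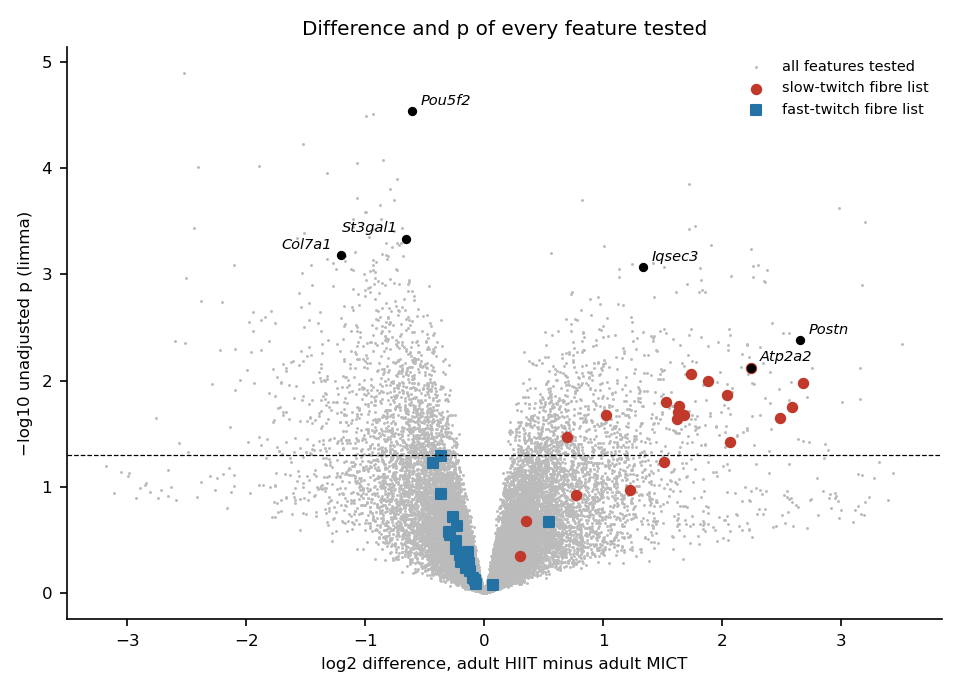
Log2 difference, adult HIIT minus adult MICT (horizontal axis), and −log10 of the unadjusted limma p (vertical axis) of the 27248 features. Circles mark the slow-twitch fibre list, squares the fast-twitch fibre list, black points the labelled genes, and the dashed line an unadjusted p of 0.05; all 20 slow-twitch genes lie right of 0.

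Genes of slow-twitch fibres had the largest median difference of the 25 pathway lists. Of 21 listed genes 20 were tested, and all 20 had a difference above 0, where 50.9% of all features did. The median difference of the 20 genes was 1.63 against 0.01 for all features, and single genes ran from 0.30 to 2.68. At an unadjusted p under 0.05 there were 15 of the 20, all higher, where 3.67% of all features were, with 0 of 20 after adjustment. With array weights the median was 2.53. A difference in the share of slow fibres and a difference in their RNA per fibre cannot be told apart in whole muscle.

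Tnni1, the slow isoform of the inhibitory troponin subunit, read 3.43, 6.75, 5.88 and 6.87 on HIIT replicates 1 to 4, against 5.37, 1.75 and 2.06 on MICT replicates 1, 3 and 4. HIIT replicates 2 to 4 and MICT replicate 1 were high, HIIT replicate 1 and MICT replicates 3 and 4 were low, and the groups overlapped. The difference was 2.68 ± 0.95 (SE, adjusted p = 0.464 in limma), or 6.39-fold. Tnnc1, the troponin that binds calcium in slow and cardiac muscle, read 2.75, 6.18, 5.06 and 6.28 on the HIIT arrays and 5.00, 1.18 and 1.56 on the MICT arrays. Its difference was 2.49 ± 1.01 (SE, adjusted p = 0.522), with the same arrays high. Tnnt1, the slow troponin that holds the complex on tropomyosin, differed by 2.04 ± 0.76.

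Myh7, the myosin heavy chain of slow fibres, read 6.48, 9.47, 8.61 and 9.48 on the HIIT arrays and 8.49, 5.14 and 5.69 on the MICT arrays. Again the lowest HIIT array lay below the highest MICT array. The difference was 2.07 ± 0.93 (SE, adjusted p = 0.570). Myl2 and Myl3, regulatory and essential light chains of slow muscle, differed by 1.88 ± 0.66 and 1.62 ± 0.66. Atp2a2, the calcium pump of slow fibres, read 3.94, 6.70, 5.92 and 6.96 on the HIIT arrays and 5.39, 2.49 and 3.02 on the MICT arrays. It had the smallest p of the list, with a difference of 2.25 ± 0.76 (SE, adjusted p = 0.440), and a second probe of the gene gave 2.31. Myoz2, a Z-disc protein of slow and cardiac muscle, differed by 1.74 ± 0.60.

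Of the 20 slow-twitch genes 1 had groups that did not overlap, higher in HIIT, a share near the 3.97% of all features. Pln, phospholamban, the inhibitor of the slow-fibre calcium pump, read -2.59, -1.41, -1.88 and -1.14 on the HIIT arrays and -2.75, -2.86 and -2.74 on the MICT arrays. The 3 MICT arrays lay close together, below all 4 HIIT arrays. Its difference was 1.03 ± 0.41 (SE, adjusted p = 0.520). Mb, the oxygen store myoglobin, gave the smallest difference of the list at 0.30 ± 0.39.

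**Figure D3:**
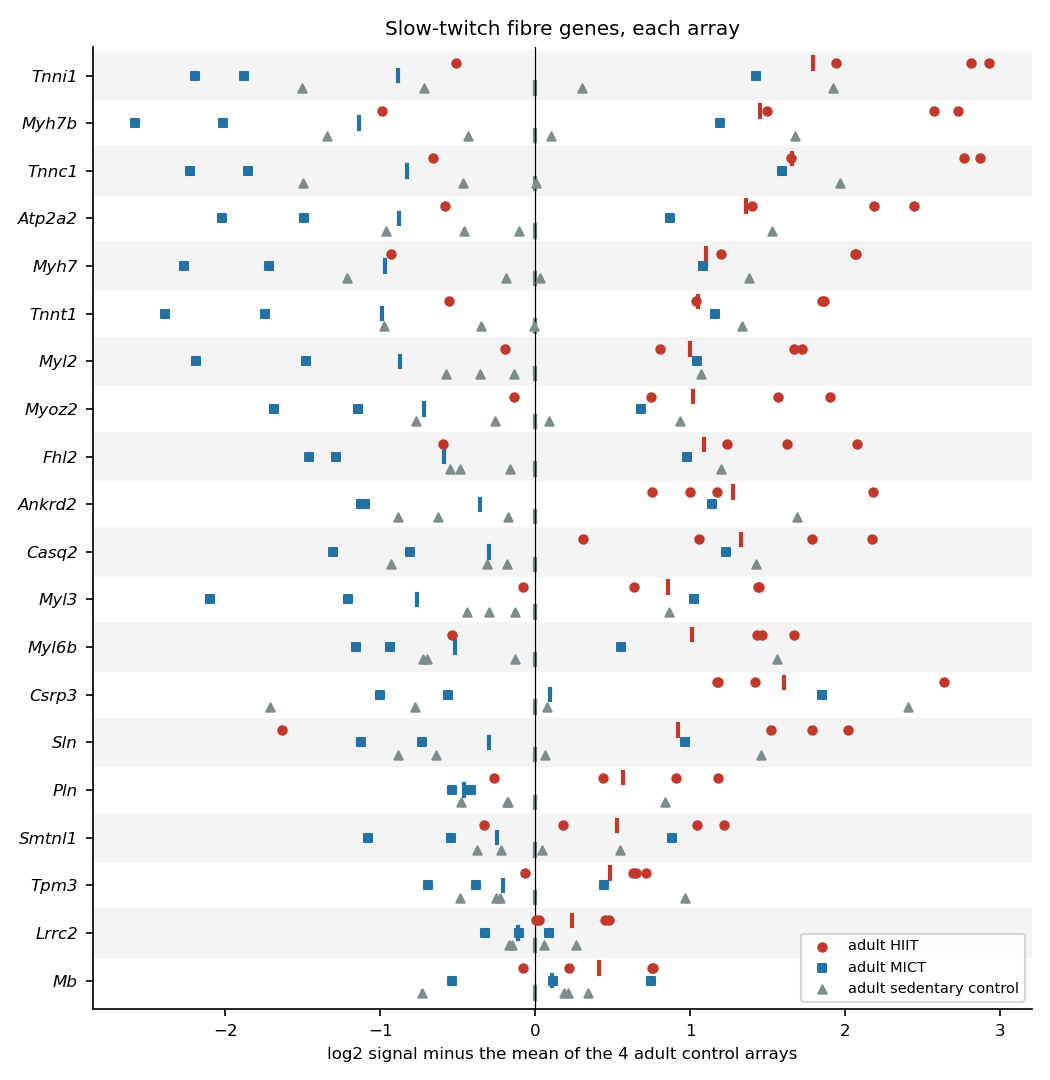
Log2 signal of the 20 slow-twitch fibre genes on each adult array, less the mean of the 4 adult control arrays (horizontal axis); each point is 1 array and each short bar a group mean. HIIT replicates 2 to 4 and 1 MICT array lie to the right for most genes, HIIT replicate 1 and the other MICT arrays to the left.

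The spread within groups followed the array more than the gene. The slow-twitch score was -0.30, 1.67, 1.05 and 1.76 on HIIT replicates 1 to 4, against 1.00, -1.30 and -1.15 on MICT replicates 1, 3 and 4 and -0.49, 1.36, -0.46 and -0.06 on the 4 control arrays. Control replicate 2, an untrained mouse, lay between HIIT replicates 2 and 3. Against the shared controls, the median difference of the list was 1.03 for HIIT, which lies on the controls' slide, and -0.55 for MICT. The tendon score was high on the same arrays, at -0.26, 0.62, 0.98 and 0.44 on the HIIT arrays, 1.52, -0.44 and -0.38 on the MICT arrays and -0.45, 0.35, -0.08 and 0.15 on the controls; its part in the slow-twitch values was not tested. Without HIIT replicate 3 the list's median was 1.71, and without HIIT replicates 3 and 4 it was 1.44.

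The promoters of 4 of these genes are shown because their transcripts were high and low on the same arrays. Each runs from 250 bases before to 50 bases after the first-listed transcription start in RefSeq (GRCm38.p6), 5′ to 3′ on the gene's strand. They lie at chr1:135799171-135799470 (Tnni1, plus strand), chr14:31208062-31208361 (Tnnc1, plus strand), chr14:54994577-54994876 (Myh7, minus strand) and chr5:122092474-122092773 (Myl2, plus strand). Capitals mark the E-box, CANNTG, the motif of the MyoD family of muscle factors, and the MCAT motif, CATTCC on either strand, the motif of TEAD factors.
Tnni1: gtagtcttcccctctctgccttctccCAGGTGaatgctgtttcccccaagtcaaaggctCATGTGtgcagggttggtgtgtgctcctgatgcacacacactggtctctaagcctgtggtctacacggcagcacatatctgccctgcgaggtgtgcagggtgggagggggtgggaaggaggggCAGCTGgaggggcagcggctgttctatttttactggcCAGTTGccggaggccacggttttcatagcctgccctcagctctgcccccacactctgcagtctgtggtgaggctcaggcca
Tnnc1: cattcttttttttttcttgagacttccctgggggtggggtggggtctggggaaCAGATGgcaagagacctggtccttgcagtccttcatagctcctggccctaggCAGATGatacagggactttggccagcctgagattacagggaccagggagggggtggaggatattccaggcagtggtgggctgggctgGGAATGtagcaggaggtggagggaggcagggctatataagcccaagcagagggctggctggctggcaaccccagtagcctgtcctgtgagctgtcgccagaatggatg
Myh7: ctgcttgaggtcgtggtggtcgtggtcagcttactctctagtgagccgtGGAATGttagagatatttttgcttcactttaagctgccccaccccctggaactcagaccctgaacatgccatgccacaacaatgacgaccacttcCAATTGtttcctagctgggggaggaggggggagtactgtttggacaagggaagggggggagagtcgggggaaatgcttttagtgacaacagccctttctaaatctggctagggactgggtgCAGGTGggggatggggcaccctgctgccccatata
Myl2: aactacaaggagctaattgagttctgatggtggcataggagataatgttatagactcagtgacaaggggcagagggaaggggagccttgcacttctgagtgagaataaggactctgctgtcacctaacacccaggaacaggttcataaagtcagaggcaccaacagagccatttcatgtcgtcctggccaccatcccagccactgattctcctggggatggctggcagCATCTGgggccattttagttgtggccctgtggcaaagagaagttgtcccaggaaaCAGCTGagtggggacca

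The windows of Tnni1, Tnnc1, Myh7 and Myl2 held 4, 2, 2 and 2 E-boxes, and Tnnc1 and Myh7 held 1 MCAT match each, none of it overlapping an E-box. Of the 20 genes tested 18 had a window in the table, Atp2a2 not among them. All 18 windows held an E-box, which 72.15% of the 27025 windows of all genes held on either strand. The MCAT motif was in 3 of the 18 and in 14.6% of all windows. The estrogen-related receptor motif, TNAAGGTCA on either strand, was in 2 of the 18 and in 1.26% of all windows. A MEF2 match was in 1 of the 18 and in 0.566% of all windows. A match describes letters in the window only.

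Fast-twitch genes lay a little lower in HIIT muscle. Of 20 tested, 18 had a difference below 0, where 50.9% of all features were above 0. Their median was -0.20, with a range of -0.43 to 0.54. An unadjusted p under 0.05 was reached by 0 of the 20, where 3.67% of all features were higher and 4.65% lower. The median was -0.079 without HIIT replicate 3 and -0.019 without HIIT replicates 3 and 4. Actn3, the fast-fibre alpha-actinin, read 9.31, 8.56, 8.65 and 8.44 on the HIIT arrays and 8.85, 9.24 and 9.41 on the MICT arrays, a difference of -0.43 ± 0.22 (SE, adjusted p = 0.620). HIIT replicate 1, low for slow-twitch genes, was high for Actn3 and the groups overlapped. Myoz1, the fast-fibre relative of Myoz2, differed by -0.36 ± 0.18. Myh4, the heavy chain of the fastest fibres, differed by -0.21 ± 0.26, Myh1 by 0.08 ± 0.38, and Myh2, of fast oxidative fibres, by 0.54 ± 0.42. Atp2a1, the calcium pump of fast fibres, differed by -0.28 ± 0.26.

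Genes of excitation and calcium release also lay a little lower in HIIT muscle. Of 23, 20 had a difference below 0 and the median was -0.18, with -0.31 without MICT replicate 1 and -0.10 without MICT replicate 4. Camk2a, a calcium-dependent kinase, read 2.46, 1.50, 1.95 and 1.53 on the HIIT arrays and 2.24, 2.54 and 2.52 on the MICT arrays, a difference of -0.58 ± 0.27 (SE, adjusted p = 0.592). Jph1, which joins the sarcoplasmic reticulum to the transverse tubule, differed by -0.51 ± 0.22. HIIT replicate 1 lay within the MICT range for Camk2a and for Jph1.

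Among 34 genes of glycolysis, lactate and glycogen, 23 had a difference below 0 and the median was -0.11. The median was 0.0013 with HIIT replicates 3 and 4 left out. Of the 34 genes, 3 had HIIT arrays all above the MICT arrays, where 3.97% of all features did. Hk1, a hexokinase, was among them and read 2.53, 2.63, 2.95 and 2.52 on the HIIT arrays against 2.42, 2.21 and 1.73 on the MICT arrays. Its difference was 0.54 ± 0.20 (SE, adjusted p = 0.488), and a second probe gave 0.23. Hk2, the insulin-regulated hexokinase of muscle, was also without overlap, at 5.64, 5.77, 5.93 and 6.08 on the HIIT arrays and 5.20, 5.49 and 5.41 on the MICT arrays. Pfkfb3, which makes the activator of phosphofructokinase, differed by -0.75 ± 0.38 with overlapping groups. Ldhb, the lactate dehydrogenase subunit of oxidative tissue, differed by 1.02 ± 0.52.

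Fatty acid genes lay higher in HIIT muscle. Of 44 tested, 38 had a difference above 0, where 50.9% of all features did, with a median of 0.21. An unadjusted p under 0.05 was reached by 4, all higher, where 3.67% of all features were. Groups did not overlap for 2 of the 44, both higher, a share near the 3.97% of all features. Plin2, a coat protein of lipid droplets, read 1.89, 2.25, 2.91 and 1.94 on the HIIT arrays and 1.78, 1.29 and 1.01 on the MICT arrays. Each HIIT array was above each MICT array, and the difference was 0.89 ± 0.32 (SE, adjusted p = 0.468). Eci1, an isomerase of mitochondrial beta-oxidation, was the other gene without overlap and differed by 0.49 ± 0.20. Lpl, the lipase that frees fatty acids from lipoproteins, read 6.14, 7.09, 6.53 and 7.53 on the HIIT arrays and 6.63, 5.36 and 5.98 on the MICT arrays. Its groups overlapped, and the difference was 0.83 ± 0.34. The list's score was highest on HIIT replicates 2 and 4 and MICT replicate 1, at 0.00, 0.41, -0.04 and 0.62 on the HIIT arrays and 0.27, -0.17 and -0.06 on the MICT arrays. Its median was 0.088 without HIIT replicate 4, 0.37 without MICT replicate 1, 0.32 without HIIT replicate 3 and 0.42 with array weights.

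Mitochondrial enzymes differed little. The median was 0.07 for 78 genes of the respiratory chain and ATP synthase, of which 56 were above 0, against 50.9% of all features. An unadjusted p under 0.05 was reached by 0 of the 78, where 3.67% of all features were higher and 4.65% lower. That median was 0.0035 without MICT replicate 3 and 0.17 without MICT replicate 1. It was 0.12 for 24 genes of pyruvate dehydrogenase and the tricarboxylic acid cycle, of which 20 were above 0, with 0.049 without HIIT replicate 4 and 0.21 without HIIT replicate 3. Pdha1, a pyruvate dehydrogenase subunit, read 5.67, 5.67, 5.56 and 5.96 on the HIIT arrays and 5.37, 5.43 and 5.52 on the MICT arrays, without overlap. Its difference was 0.27 ± 0.15 (SE, adjusted p = 0.646). Idh2, the isocitrate dehydrogenase of mitochondria that makes NADPH, differed by 0.77 ± 0.46.

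Regulators of mitochondrial biogenesis had a median difference of 0.07, which ran from -0.012 without MICT replicate 1 to 0.14 without HIIT replicate 3. Of 25 tested, 4 had HIIT arrays all higher, where 3.97% of all features did, and 1 had them all lower, where 6.64% of all features did. Esrra, estrogen-related receptor alpha, read 5.99, 6.05, 5.91 and 6.29 on the HIIT arrays and 5.78, 5.68 and 5.71 on the MICT arrays, a difference of 0.33 ± 0.14 (SE, adjusted p = 0.548). Esrrg, the receptor's gamma form, found in oxidative muscle, read 1.64, 2.50, 1.63 and 2.56 on the HIIT arrays and 1.53, 0.90 and 1.29 on the MICT arrays, a difference of 0.84 ± 0.41. Ppargc1a read 3.55, 3.31, 3.41 and 3.58 on the HIIT arrays and 3.30, 3.23 and 3.14 on the MICT arrays. No HIIT array of these 3 genes lay below a MICT array, though the gap for Ppargc1a was small beside its difference of 0.24 ± 0.21. Pdk4, the kinase that turns off pyruvate dehydrogenase, differed by -0.50 ± 0.82.

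Prkag3, the AMP-activated kinase subunit of fast glycolytic muscle, was the gene with the smallest p in the list of mTORC1 and translation control. It read 2.12, 0.63, 1.22 and 0.78 on the HIIT arrays and 1.61, 2.57 and 3.10 on the MICT arrays, a difference of -1.24 ± 0.45 (SE, adjusted p = 0.468). HIIT replicate 1 was again within the MICT range. Bdh1, a ketone body dehydrogenase, differed by 1.20 ± 0.57 and Gpt2, the mitochondrial alanine transaminase, by -0.96 ± 0.44. Tnnc1, Eci1, Esrra, Bdh1, Prkag3, Fbxo32 and Gsta2 also have probes in spot columns 68 to 85. Without HIIT replicate 3 there, their differences were 2.49, 0.62, 0.38, 1.32, -1.25, -0.75 and 2.17.

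**Figure D4:**
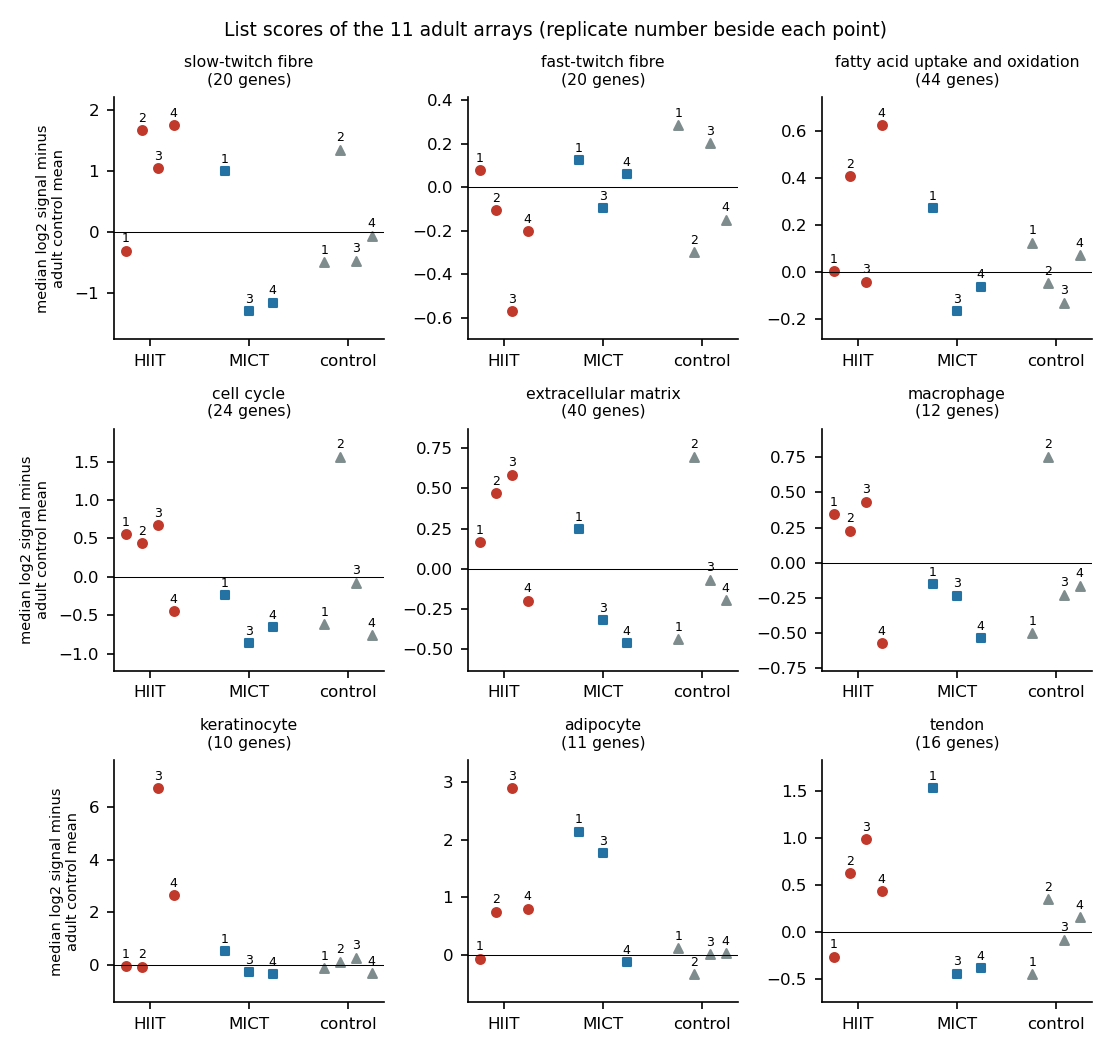
Score of 9 gene lists (median log2 signal minus the adult control mean, vertical axis) on each adult array, with HIIT, MICT and sedentary controls along the horizontal axis and the replicate number beside each point. Slow-twitch and tendon scores are high on HIIT replicates 2 to 4, MICT replicate 1 and control replicate 2, and keratinocyte scores on HIIT replicates 3 and 4.

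Genes of cell division and matrix lay higher in HIIT muscle, and a control array exceeded both regimens. Of 24 cell cycle genes 21 had a difference above 0, with a median of 0.96. The score was 0.56, 0.44, 0.67 and -0.45 on the HIIT arrays, -0.24, -0.86 and -0.65 on the MICT arrays and -0.61, 1.56, -0.08 and -0.76 on the controls. HIIT replicate 4 was within the MICT range and control replicate 2 was the highest of all. Mki67, a marker of dividing cells, read -0.61, -0.94, -0.05 and -2.81 on the HIIT arrays and -2.00, -3.57 and -3.79 on the MICT arrays, a difference of 2.01 ± 0.78 (SE, adjusted p = 0.497). Ccnb2, a mitotic cyclin, differed by 1.75 ± 0.70. Under the normexp background correction the list's median was 0.18, and over the probes above background on all 23 arrays it was 0.60.

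Of 40 extracellular matrix genes 35 had a difference above 0 and the median was 0.46, with 0.73 without MICT replicate 1 and 0.31 without MICT replicate 4. Postn, the matrix protein periostin, read 2.29, 3.29, 3.36 and 1.29 on the HIIT arrays and 1.42, -0.50 and -1.21 on the MICT arrays. HIIT replicate 4 lay just below MICT replicate 1, and the difference was 2.66 ± 0.82 (SE, adjusted p = 0.419). Timp1, an inhibitor of matrix metalloproteases, read 2.83, 3.06, 1.81 and 0.44 on the HIIT arrays and 0.91, -1.004 and -1.95 on the MICT arrays, a difference of 2.71 ± 1.02. On control replicate 2 Postn read 3.97 and Timp1 4.31, above every adult trained array. Col3a1, a fibrillar collagen chain, differed by 1.21 ± 0.59. The macrophage score was 0.35, 0.23, 0.44 and -0.57 on the HIIT arrays, -0.15, -0.24 and -0.54 on the MICT arrays and 0.75 on control replicate 2; its part in the matrix and cell cycle values was not tested.

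Col7a1, the collagen of anchoring fibrils, is not in that matrix list and differed with the opposite sign. It read 1.76, 1.28, 1.74 and 1.88 on the HIIT arrays and 2.43, 3.02 and 3.17 on the MICT arrays. The groups were well apart, and the difference was -1.21 ± 0.30 (SE, adjusted p = 0.329). In the controls it averaged 2.46 ± 0.52 (SD, n = 4).

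Immediate early and exercise-induced genes mostly lay higher in HIIT muscle. Of 23 tested, 20 had a difference above 0, where 50.9% of all features did, with a median of 0.35. An unadjusted p under 0.05 was reached by 1, which was higher, a share near the 3.67% of all features. Ccn1, a secreted matrix-associated signal, read 2.01, 2.91, 2.25 and 2.56 on the HIIT arrays and 2.40, 0.96 and 1.18 on the MICT arrays, a difference of 0.92 ± 0.43 (SE, adjusted p = 0.587). Ccn2, its relative, differed by 0.84 ± 0.43 and Atf3, a stress-induced transcription factor, by 0.82 ± 0.43. Genes of muscle growth and myokines were evenly split, with 13 of 25 above 0, 12 below 0 and a median of 0.08, which was -0.08 without MICT replicate 4. In that list 3 genes had an unadjusted p under 0.05 and were higher, where 3.67% of all features were. Only 1 of the 25 was lower, where 4.65% of all features and 361 of the 15461 named genes were. Apln, the secreted peptide apelin, read -0.46, -0.88, -0.22 and -1.76 on the HIIT arrays and -1.44, -2.68 and -2.80 on the MICT arrays, a difference of 1.48 ± 0.51 (SE, adjusted p = 0.445). MICT replicate 1 lay above HIIT replicate 4. Bdnf, a neurotrophin, differed by 0.95 ± 0.36.

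Hspa1a, an inducible heat shock chaperone, read 0.20, 1.03, 0.59 and 1.21 on the HIIT arrays and 0.25, -1.10 and -0.64 on the MICT arrays. HIIT replicate 1 and MICT replicate 1 were nearly equal, and the difference was 1.25 ± 0.39 (SE, adjusted p = 0.419). Hspb8, a small heat shock protein of muscle, was lower on every HIIT array, at 5.76, 5.60, 5.55 and 5.57 against 5.83, 6.32 and 6.34 on the MICT arrays. Its difference was -0.55 ± 0.20 (SE, adjusted p = 0.470). Of 23 heat shock and chaperone genes 17 were above 0, with a median of 0.15 that was 0.23 without MICT replicate 1.

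Clock genes were mostly lower, with 13 of 18 below 0 and a median of -0.30, which was -0.16 without MICT replicate 4, -0.18 without MICT replicate 3 and -0.19 without HIIT replicate 2. Groups did not overlap for 1 of the 18, lower in HIIT, where 6.64% of all features were. Tef, a clock output factor, read 6.55, 6.32, 6.53 and 6.41 on the HIIT arrays and 6.72, 6.98 and 6.94 on the MICT arrays. All HIIT arrays lay below all MICT arrays, and the difference was -0.43 ± 0.19 (SE, adjusted p = 0.564). Rora, a nuclear receptor that drives Bmal1 transcription, differed by -0.50 ± 0.23.

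Genes of muscle wasting mostly lay lower in HIIT muscle. Fbxo32 and Trim63 encode the ubiquitin ligases atrogin-1 and MuRF1, and they differed by -0.78 ± 0.67 and -0.45 ± 0.69. Fbxo32 read 3.64, 3.81, 3.48 and 3.36 on the HIIT arrays and 3.90, 4.74 and 4.43 on the MICT arrays, without overlap. The SE comes from the spread over all 6 groups of the fit. Of 30 protein degradation and autophagy genes 23 were below 0, with a median of -0.10 that was -0.032 without MICT replicate 3 and -0.19 without MICT replicate 1. Groups did not overlap for 3 of the 30, all lower in HIIT, where 6.64% of all features were. Mstn, the growth inhibitor myostatin, differed by -0.55 ± 0.47.

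The genes with the smallest p among those with groups apart and probes above background on all 7 arrays belonged to none of the 41 gene lists. Pou5f2, a POU-domain transcription factor known from testis, had the smallest p of them. It read -0.67, -0.54, -0.58 and -0.64 on the HIIT arrays and 0.03, 0.04 and -0.07 on the MICT arrays, with controls at -0.21 ± 0.15 (SD, n = 4). Both regimens were tight, with the controls between them, and the difference was -0.61 ± 0.11 (SE, adjusted p = 0.221). St3gal1, a sialyltransferase, read 2.34, 2.38, 2.70 and 2.20 on the HIIT arrays and 3.06, 3.08 and 3.04 on the MICT arrays, a difference of -0.66 ± 0.16 (SE, adjusted p = 0.329). A second probe of St3gal1 gave -0.22.

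Zbed6, a transcription factor that represses Igf2 in muscle, read -0.83, -0.89, -0.91 and -1.05 on the HIIT arrays and 0.09, -0.15 and 0.05 on the MICT arrays. The groups lay far apart, with a difference of -0.92 ± 0.24 (SE, adjusted p = 0.330), and the controls averaged -0.21 ± 0.24 (SD, n = 4), nearer the MICT arrays. Igflr1, a receptor of IGF-like proteins, differed by -0.68 ± 0.17. Dnase1l1, a DNase I relative found in muscle, differed by -1.01 ± 0.26, and a second probe gave -0.88.

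Iqsec3, an exchange factor for ARF GTPases, headed the genes that were higher. It read 3.69, 4.07, 3.09 and 3.31 on the HIIT arrays and 1.91, 1.82 and 2.89 on the MICT arrays. MICT replicate 4 lay just under the lowest HIIT array. The difference was 1.33 ± 0.34 (SE, adjusted p = 0.329 in limma). The probe read here is annotated to a noncoding transcript of Iqsec3. A second probe, annotated to a coding transcript, gave 0.36 ± 0.56 (SE). Uchl1, a deubiquitinase of neurons, read -0.67, -0.27, -0.61 and -0.11 on the HIIT arrays and -1.20, -1.41 and -1.33 on the MICT arrays, a difference of 0.90 ± 0.26. Fam241a differed by 0.62 ± 0.19. Gsta2, a glutathione transferase, read -1.68, -1.46, -1.54 and -1.89 on the HIIT arrays and -2.96, -4.52 and -4.07 on the MICT arrays, a difference of 2.21 ± 0.70. Near-identical copies of Gsta2 exist, so its probe may read several of them.

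The difference between regimens was next set against the same difference in old mice, whose HIIT and MICT arrays share slide 3. No feature of 27248 passed the test of the difference between ages in limma (0%), where 2377 had an unadjusted p under 0.05 and the smallest adjusted p was 0.432. In old muscle alone 0 features passed (0% in each direction), 4349 had an unadjusted p under 0.05, and 38.5% of all features had a difference above 0. The old arrays did not overlap for 2.35% of features that were higher and 4.33% that were lower in HIIT. Old HIIT replicate 2 had the lowest value of all arrays at 29.35% of gene spots outside columns 68 to 85, and without it 2 features passed in old muscle.

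The slow-twitch list had a median difference of 1.63 in adult muscle, with 20 of 20 genes above 0, and of 0.69 in old muscle, with 16 of 20 above 0. Tnni1 differed by 2.68 ± 0.95 in adult and 1.57 ± 0.88 in old muscle, and the difference between ages was 1.11 (adjusted p = 0.789). The fast-twitch medians were close, at -0.20 in adult and -0.19 in old muscle. Cell cycle genes had medians of 0.96 in adult and 1.11 in old muscle. The keratinocyte list had a median of 2.57 in adult and 4.69 in old muscle, and the part of skin in the other values was not tested.

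Some lists had medians of opposite sign in adult and old muscle, a difference that was tested gene by gene only. The immediate early list had a median of 0.35 in adult and -0.39 in old muscle. Its score was 0.16, -0.0035, -0.25 and -0.05 on old HIIT replicates 1 to 4. On old MICT replicates 1 to 4 it was 0.74, 0.73, -0.06 and -0.32, so the groups overlapped. Atf3 differed by 0.82 ± 0.43 in adult and -1.09 ± 0.40 in old muscle, and Ccn1 by 0.92 ± 0.43 in adult and -0.78 ± 0.40 in old muscle. The differences between ages of 1.92 and 1.69 did not pass (adjusted p = 0.528 each in limma). Fatty acid genes had a median of 0.21 in adult and -0.14 in old muscle, and respiratory chain genes 0.07 in adult and -0.14 in old muscle. The median of all features was 0.01 in adult and -0.09 in old muscle. The glucocorticoid-induced list had a median of -0.04 in adult and -1.04 in old muscle, with 0 of 20 genes above 0 in old muscle. Its score was 2.04, 1.11, 0.34 and -0.20 on old HIIT replicates 1 to 4. On old MICT replicates 1 to 4 it was 3.08, 2.85, 0.64 and 0.39. The groups overlapped, and old MICT replicates 1 and 2 were the highest.

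**Figure D5:**
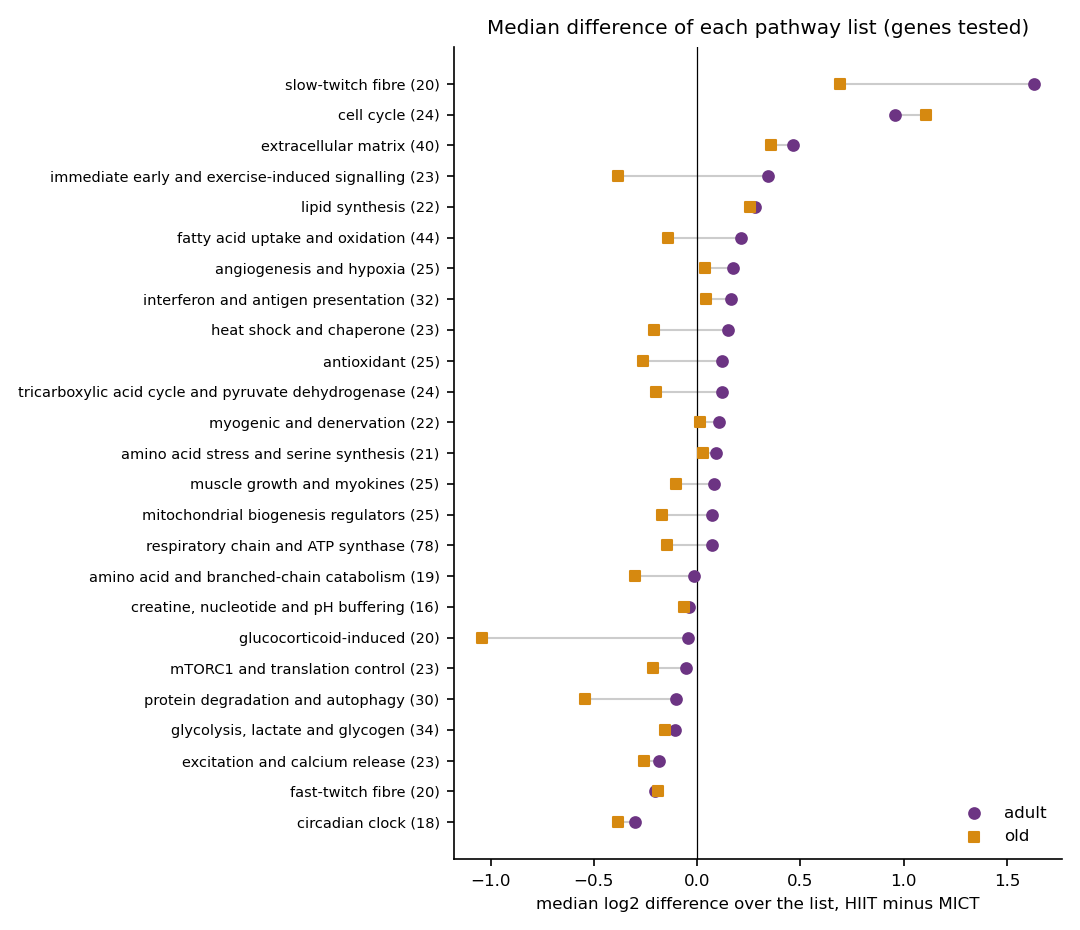
Median log2 difference over each of 25 pathway lists, HIIT minus MICT (horizontal axis), in adult mice (circles) and old mice (squares), with the number of genes tested beside each list name. The slow-twitch list has the highest adult median, 1.63, and the glucocorticoid-induced list the lowest old median, -1.04.

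The 4 genes below, named by their p for the difference between ages, had groups apart in opposite directions, which that choice favours. Pou5f2 differed by -0.61 in adult muscle and, in old muscle, read -0.04, 0.01, -0.07 and 0.06 on the HIIT arrays against -0.41, -0.36, -0.14 and -0.19 on the MICT arrays. Its difference between ages was -0.87 ± 0.16 (SE, adjusted p = 0.432). The noncoding-transcript probe of Iqsec3 read 1.38, 2.43, 2.59 and 2.37 on the old HIIT arrays. On the old MICT arrays it read 3.25, 3.03, 3.01 and 3.14. Its difference between ages was 2.25 ± 0.47 (SE, adjusted p = 0.439 in limma). Rab1b, a GTPase of endoplasmic reticulum to Golgi transport, read 4.65, 4.66, 4.65 and 4.64 on the adult HIIT arrays and 4.49, 4.50 and 4.48 on the adult MICT arrays. Its groups were tight and apart by only 0.16 ± 0.09, against -0.30 ± 0.08 in old muscle. H2-Eb2, a class II antigen gene, was well above background on 3 of 4 adult HIIT arrays and 3 of 3 adult MICT arrays, and it differed by -1.45 ± 0.68 in adult and 2.14 ± 0.63 in old muscle.

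Sertad3, a transcriptional coactivator, differed by -0.42 ± 0.15 in adult and 0.29 ± 0.13 in old muscle. Drd2, the dopamine D2 receptor, was well above background on 3 of 4 HIIT arrays and on none of 3 MICT arrays. With each MICT array set no lower than its lowest signal well above background, the mean of the 4 adult HIIT arrays was 1.20-fold higher. The HIIT array that was not well above background entered at its own value. The gene did not pass (adjusted p = 0.329 in limma).

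Sbk3, a kinase gene of striated muscle, was among the 5 genes that varied most over the MICT arrays. It read -0.36, 2.60, 1.52 and 2.16 on the HIIT arrays and 1.60, -1.67 and -2.24 on the MICT arrays, with the slow-twitch arrays high. The difference was 2.25 ± 0.80 (SE, adjusted p = 0.464). Hpf1, which guides ADP-ribosylation to serine, and Ociad1 were among the 5 that varied most over the HIIT arrays, with HIIT replicate 3 at -3.58 and -3.17 against 2.99 to 3.56 (Hpf1) and 2.45 to 3.04 (Ociad1) on the other adult trained arrays. Their differences of -1.76 and -1.47 became -0.04 and 0.03 with HIIT replicate 3 left out for these probes.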

How the data were processed

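Total RNA (200 ng per array) was hybridised in 1 colour. Per the file headers, Agilent Feature Extraction 12.0.3.1 gave each spot a background-subtracted processed intensity, with flags and array annotation on build mm9. The deposited value table holds a score per probe, the z-score of the log10 intensity within each array as the values show, and it served as an alternative only.

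Here the processed intensity deposited by the authors was put on the log2 scale, less each array's 75th percentile over gene spots. Spots with an outlier flag were dropped, and spots of one probe were averaged. Probes had to be well above background on at least 3 of the 23 arrays. Each symbol was represented by its brightest probe, which left 27248 features. Of 29786 probes with a RefSeq accession, 28325 were named through RefSeq (GRCm38.p6), and the others kept the file's name.

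The test was limma 3.58.1 in R 4.3.3, with a mean for each of 6 groups over all 23 arrays, an intensity trend and Benjamini-Hochberg adjustment at 0.05. The script was tested on simulated data. P-values measure the spread between mice as labelled. The members and the 41 gene lists were chosen with earlier results of these data known, so lists are described by counts and medians.

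Named genes were the 10 in each direction with the smallest p among those whose groups do not overlap and whose probes are above background on all 7 arrays, the 3 with the smallest p in each list, a fixed set, the 5 in each direction for the difference between ages and the 5 with the largest SD in each group. Only part of them is described. Acta1, Alb, Mb, Myl3, Pln and Tnnt1 fall outside this rule and were chosen after their values were seen. The 31 alternatives covered background correction, scaling, the deposited table, dim probes, probes per gene, variance model, array weights, arrays in the fit, a replicate block and each array left out. Both settings that drop HIIT replicate 3, for spot columns 68 to 85 or together with HIIT replicate 4, were chosen after seeing the data.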

Additional observations from a re-analysis of the deposited data

Results flagged for a closer look

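Within groups of 4, chance alone sets about 1 in 20 groups apart by the gap used here (Dixon's test). Adult HIIT replicate 3 stood alone for 4 genes with probes in spot columns 68 to 85, namely B2m at 0.37, Pecam1 at -3.70, Hpf1 at -3.58 and Ociad1 at -3.17 (log2 signal). The antioxidant list score was also apart on that array, at -0.047. Rab1b was apart on HIIT replicate 4 at 4.64, in a group whose whole range is very narrow. The clock score was apart on HIIT replicate 2 at -0.45, and the immediate early score on HIIT replicate 1 at -0.079.

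Among the adult controls, replicate 2 stood alone for Rora at 2.54, Apln at 0.42, Col7a1 at 1.69, Adipoq at 0.97, Igflr1 at 1.36, Sbk3 at 1.81 and the clock score at -0.31. Control replicate 3 stood alone for Mb at 7.95 and for Pecam1 at -0.65. The HIIT minus MICT differences do not use the control arrays except through the shared estimate of the spread.

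Among the genes named by their p for the difference between ages, 4 had groups apart in opposite directions in adult and old mice. That choice favours such genes, and their number over all features was not counted. Over all features, adult groups did not overlap for 3.97% that were higher and 6.64% that were lower in HIIT. In old muscle these shares were 2.35% and 4.33%. The adult difference (HIIT minus MICT) less the old one was 2.25 for Iqsec3 (noncoding-transcript probe), -0.87 for Pou5f2, -3.59 for H2-Eb2 and 0.46 for Rab1b. The limma test of that difference gave adjusted p of 0.439, 0.432, 0.528 and 0.528 in that order of genes, so none passed.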

How the results depend on the processing

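In adult muscle 0 features were called as reported (limma, 2267 at an unadjusted p under 0.05), and 3431 with array weights. Leaving out 1 array gave 0 to 1, the 1 being an unnamed interval probe without HIIT replicate 4, and leaving out HIIT replicates 3 and 4 together gave 1, the same probe; the deposited table, the scalings, the filters and the other settings gave 0. The replicate block gave 0 in adult, in old and in the difference between ages. Deviations of same-numbered HIIT and MICT arrays correlated at -0.30, 0.12 and 0.04, and those of different-numbered arrays from -0.23 to 0.31. With so few arrays these values cannot decide whether replicate numbers pair the samples. In old muscle the count was 1 with quantile normalization and 1 with z-scores, and 0 to 2 with 1 array left out, with 2 without old HIIT replicate 2 and 2 without old MICT replicate 3. The difference between ages gave 0 to 2, the 2 without old MICT replicate 3. Some differences changed sign. Myh1 ran from -0.15 to 0.35 with 1 array left out, at -0.075 without HIIT replicate 2, -0.085 without HIIT replicate 4 and -0.15 without MICT replicate 3. Adipoq ran from -1.13 to 0.070 (without MICT replicate 1) and Mb from -0.019 (without MICT replicate 3) to 0.62. B2m ran from -1.61 to 0.060 and Ociad1 from -2.00 to 0.033, both highest without HIIT replicate 3, with the same 0.060 and 0.033 where it was left out only for spot columns 68 to 85. Without HIIT replicates 3 and 4, B2m was 0.063 and Pecam1 0.011. The slow-twitch median ran from 1.24 without MICT replicate 3 to 2.41 without MICT replicate 1, and from 1.44 to 2.53 over the other settings. The cell cycle median of 0.96 was 0.18 with normexp. The causes were not tested. Slide and regimen cannot be told apart.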

Other observations

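Other lists in adult muscle had medians that moved with single arrays. Lipid synthesis genes had 18 of 22 differences above 0 and a median of 0.28 (HIIT minus MICT), and in old muscle the median was 0.25. The adult median was 0.17 without HIIT replicate 3 and 0.091 without HIIT replicates 3 and 4. Interferon and antigen presentation genes had 24 of 32 above 0 with a median of 0.17 that was 0.049 without HIIT replicate 3, 0.068 without MICT replicate 4 and 0.28 without MICT replicate 1. Angiogenesis and hypoxia genes had 17 of 25 above 0 with a median of 0.17. That median was 0.085 without MICT replicate 3, 0.099 without HIIT replicate 2, 0.27 without MICT replicate 1 and 0.30 with array weights. Liver markers had 6 of 8 differences below 0 and a median of -0.52, which ran from -1.11 without MICT replicate 4 to -0.19 without MICT replicate 1.

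Lymphocyte markers lay higher in old HIIT muscle than in old MICT muscle. T and NK cell markers had 10 of 12 differences above 0 and a median of 0.32 in adult muscle, beside 12 of 12 and 1.50 in old muscle. The adult median was 0.53 without MICT replicate 1 and 0.069 with the normexp background correction. B and plasma cell markers had a median of 0.44 in adult and 1.64 in old muscle. That adult median was 0.24 without MICT replicate 3, 0.74 without MICT replicate 1 and -0.16 with the normexp correction. Probes of 4 of the 9 B and plasma cell markers were well above background on none of the 7 adult arrays compared. The same held for 2 of the 12 T and NK cell markers. These probes passed the filter through arrays of other groups, so both adult medians rest partly on background signal. Schwann cell and nerve markers had 11 of 13 above 0 and a median of 0.08 in adult muscle, beside 13 of 13 and 0.77 in old muscle, and the adult median ran from -0.24 without MICT replicate 4 to 0.37 without MICT replicate 1. The difference between ages was not tested over these lists.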
